A study of Bos taurus with 22 samples.

Results

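CPT2, HADHA and HADH are 3 nuclear genes that encode enzymes of mitochondrial fatty acid oxidation, and their transcripts were followed in circulating white blood cells of 22 heifers, which are young cows that have not yet calved. The 3 genes were matched by symbol to Ensembl identifiers, and they are 3 of the 27607 genes in the count table and 3 of the 13526 genes with enough counts to be tested. They were chosen by measured values. Gene symbols were at hand only for the genes with the smallest p-values between Fertile and Sub-Fertile heifers, so the members were selected on that contrast, and their difference between the fertility groups is given below as a description with no test. Their differences between breeds and the dependence of the fertility difference on breed were not used in that choice. Their variation among heifers entered it indirectly, because the p-value sets a difference against the spread among heifers.

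Of 12 Angus heifers 7 were Sub-Fertile and 5 Fertile, and of 10 Holstein heifers 5 were Sub-Fertile and 5 Fertile, all purebred and bled at their first artificial insemination, with 1 library of polyadenylated RNA per heifer. Angus heifers averaged 14 months of age and were synchronized with gonadotropin-releasing hormone, prostaglandin F2 alpha and a progesterone device kept for 7 days. Holstein heifers averaged 12 months, carried the device for 5 days and received a further injection of prostaglandin F2 alpha. The paper also states that the management of beef and dairy heifers differs. A Fertile heifer conceived at that first service and later calved. An Angus heifer was called Sub-Fertile when 2 services and then a bull had failed, and a Holstein heifer when 4 or more services were needed. Breed, age, management, synchronization and the Sub-Fertile criterion therefore changed together and cannot be told apart.

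Long-chain fatty acids enter the mitochondrial matrix as carnitine esters, and CPT2, carnitine palmitoyltransferase 2, sits on the inner mitochondrial membrane and turns them back into acyl-CoA. Acyl-CoA dehydrogenases then start a cycle that shortens the chain. HADHA is the alpha subunit of the mitochondrial trifunctional protein and carries the enoyl-CoA hydratase and the long-chain 3-hydroxyacyl-CoA dehydrogenase, while HADH is a separate matrix enzyme that does the dehydrogenase step for medium and short chains. Leukocytes use these enzymes to different extents, with resting and memory lymphocytes usually described as more reliant on fatty acid oxidation than neutrophils, which depend largely on glycolysis.

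In the ARS-UCD1.2 assembly and its Ensembl annotation, CPT2 (ENSBTAG00000014649) spans chr3:93032987-93057118, HADHA (ENSBTAG00000015038) chr11:73256623-73298910 and HADH (ENSBTAG00000002049) chr6:17208776-17252208, and all 3 are protein-coding. The counted fragments fall on annotated exons, summed per gene. In the order of RefSeq genes on the later assembly ARS-UCD2.0, CPT2 lies between CZIB and SLC1A7, HADHA between HADHB and GAREM2, and HADH between LEF1 and CYP2U1, with no overlap between a member and its neighbours. HADHB encodes the beta subunit of the trifunctional protein, and its transcript was not analysed here because no identifier could be tied to that symbol.

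Total counts ranged from 12182400 to 49228035 per heifer (median 23158374). The median was 43397234 in Angus Fertile and 28354518 in Angus Sub-Fertile heifers. In Holstein Fertile and Sub-Fertile heifers it was 17180109 and 17198877, so depth differed with breed and, in Angus heifers, with fertility group. The members rested on at least 377 counts in every heifer for CPT2, 1408 for HADHA and 451 for HADH. Some heifers had transcriptomes far closer to each other than the rest: 8 pairs had a biological coefficient of variation between 0.0378 and 0.0829, against 0.0981 to 0.261 in the other 223 pairings. The close pairs were heifer 1 with 11, 5 with 6, 7 with 16, 8 with 12, 10 with 18, 13 with 22, 14 with 20, and 15 with 19. The breed differed within 4 of them and the fertility group within 6, and 0 of the 8 were from a single group. Heifers 10 and 18 also stood apart from the rest on the second principal component. What makes these libraries alike was not tested, so results for the members are also given with 1 heifer of each close pair (14 heifers) or with the pairs as blocks. In addition, whole blood leukocytes are a mixture, and in such bulk RNA fewer cells of a type and less RNA per cell cannot be told apart.

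HADHA was the most abundant of the 3 transcripts. As CPM (the counts of a gene per 1000000 counts of that heifer), its mean over the 22 heifers was 141 ± 22.2 (SD), which placed it above 87.6% of the tested genes, while HADH averaged 39.4 ± 2.95 and CPT2 34.6 ± 3.45 CPM, at percentiles 58.8 and 55.5. CPM favours long transcripts, so levels were compared per length, with transcripts of 2723 bases for HADHA, 1767 for HADH and 2380 for CPT2. HADHA then ran from 40.7 to 70.7 CPM per kilobase over the heifers, HADH from 19.7 to 26.4 and CPT2 from 12.5 to 17.3. The ranges did not overlap, and the order HADHA, HADH, CPT2 held in 22 of 22 heifers. For HADH and CPT2 this rests on the single annotated length used per gene. In plain CPM, CPT2 was above HADH in heifer 9 (36.4 against 36.1) and in heifer 13 (37.5 against 37.0). The level of HADHA per kilobase was 1.85 to 3.46 times that of HADH, and the level of HADH was 1.33 to 1.88 times that of CPT2.

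The 3 genes differed in how much they varied among heifers. Over all heifers the coefficient of variation of the CPM was 7.49% for HADH, 9.96% for CPT2 and 15.7% for HADHA, and the median of the tested genes was 15.5%. HADH thus varied less than most genes, with only 7.32% of tested genes at or below its coefficient, CPT2 stood at percentile 21.7 and HADHA at 50.8. A small spread among heifers lowers the p-value that chose the members. The choice thus favoured genes of low variation, and these percentiles are a description. Counting error alone had a median coefficient of 3.38% for HADH, 3.56% for CPT2 and 1.71% for HADHA, so the spread of each gene among heifers was larger than its counting error. The highest heifer exceeded the lowest 1.73-fold for HADHA, 1.39-fold for CPT2 and 1.34-fold for HADH.

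CPT2, which completes the import of long-chain fatty acids, kept to a narrow band in every group. In Angus Sub-Fertile heifers it had a lowest value of 29.6, a median of 33.6 and a highest value of 39.2 CPM. The Angus Fertile heifers 18 to 22 had 36.7, 32.3, 41.1, 31.6 and 38.0 CPM. In Holstein Sub-Fertile heifers 1 to 5 the values were 30.4, 30.7, 36.3, 34.2 and 29.9 CPM. The Holstein Fertile heifers 6 to 10 had 35.6, 30.4, 38.2, 36.4 and 38.1 CPM. All groups overlapped, although 3 of 5 Holstein Fertile heifers (8, 9 and 10) lay above every Holstein Sub-Fertile heifer. The lowest heifer (16) was Angus Sub-Fertile and the highest (20) was Angus Fertile. The group means were 34.5 ± 3.47 (SD, n = 7) in Angus Sub-Fertile, 35.9 ± 3.99 (n = 5) in Angus Fertile, 32.3 ± 2.79 (n = 5) in Holstein Sub-Fertile and 35.7 ± 3.18 CPM (n = 5) in Holstein Fertile heifers.

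HADHA, the trifunctional protein alpha subunit, showed a wider spread than the other members, and its largest group difference was within Holstein heifers. In Angus Sub-Fertile heifers the lowest value was 127, the median 139 and the highest 174 CPM. The Angus Fertile heifers 18 to 22 had 165, 125, 149, 116 and 128 CPM, with 3 heifers within and 2 below the range of the Angus Sub-Fertile heifers. In Holstein the Sub-Fertile heifers 1 to 5 had 111, 113, 119, 144 and 138 CPM. The Holstein Fertile heifers 6 to 10 had 161, 170, 122, 192 and 165 CPM, so 4 of these 5 lay above every Holstein Sub-Fertile heifer and the groups overlapped through heifer 8 alone. The means were 141 ± 16.5 (SD, n = 7) and 136 ± 20.1 (n = 5) in Angus Sub-Fertile and Fertile heifers, and 125 ± 15.1 and 162 ± 25.5 CPM (n = 5 each) in Holstein Sub-Fertile and Fertile heifers. The highest and the lowest HADHA level of the study were both in Holstein heifers (9 and 1).

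HADH, the dehydrogenase for shorter chains, was the steadiest of the 3. It ran, in Angus Sub-Fertile heifers, from 35.2 through a median of 38.0 to 44.2 CPM. The Angus Fertile heifers 18 to 22 had 39.1, 40.6, 46.7, 37.0 and 40.4 CPM. The Holstein Sub-Fertile heifers 1 to 5 had 34.8, 39.9, 38.5, 38.7 and 37.4 CPM, and the Holstein Fertile heifers 6 to 10 had 38.0, 42.4, 42.9, 36.1 and 41.6 CPM. The groups overlapped, with 3 of 5 Holstein Fertile heifers (7, 8 and 10) above every Holstein Sub-Fertile heifer. Group means were 38.8 ± 2.97 (SD, n = 7), 40.8 ± 3.61 (n = 5), 37.9 ± 1.93 (n = 5) and 40.2 ± 2.99 CPM (n = 5), in the same order of groups. Heifer 20 was highest for both HADH and CPT2, heifer 1 was lowest for both HADH and HADHA, and no heifer was highest or lowest for all 3 genes.

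**Figure D1:**
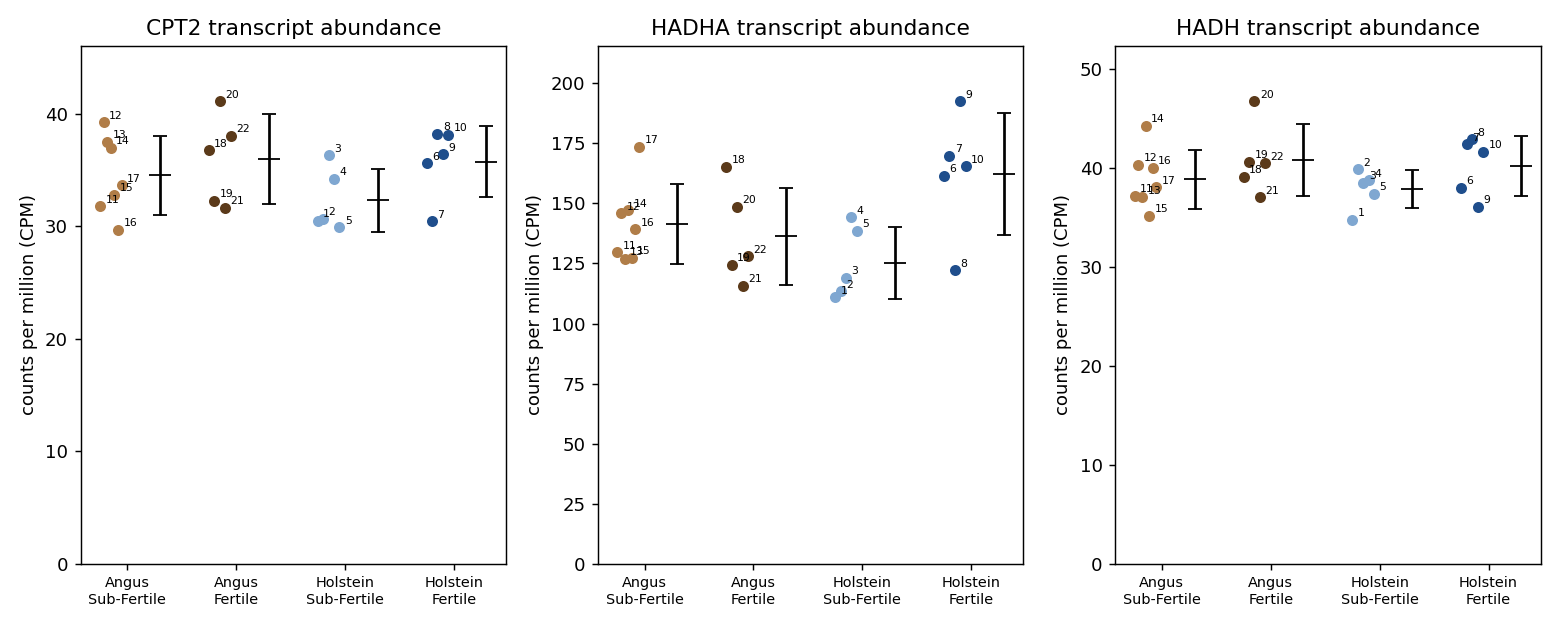
Transcript abundance of CPT2, HADHA and HADH in CPM (vertical axes, starting at 0) in each of 22 heifers, numbered, by breed and fertility group. Bars beside the points give the group mean ± SD (n = 7, 5, 5 and 5). For HADHA, 4 of 5 Holstein Fertile heifers lie above all Holstein Sub-Fertile heifers, as do 3 of 5 for CPT2 and for HADH. The fertility groups overlap in both breeds for each gene.

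The contrast that chose the members compared Fertile with Sub-Fertile heifers with breed in the model. All 3 log2 fold changes were above 0 and small: 0.10 (SE 0.062, a 1.07-fold higher level in Fertile heifers) for CPT2, 0.15 (SE 0.091, 1.11-fold) for HADHA and 0.08 (SE 0.049, 1.06-fold) for HADH. By the size of their fertility p-value the members ranked 1191, 1228 and 1292 of 13526 genes (CPT2, HADHA, HADH). Named genes of the pathway lists reached rank 1501 (PRKAB1), and beyond that end genes carry no symbol here. Across all genes the edgeR quasi-likelihood test gave 0 genes (0.0%) at a Benjamini-Hochberg adjusted p under 0.05 and 354 genes (2.62%) at an unadjusted p under 0.05, and DESeq2 gave 0 and 529. With the close pairs as blocks, 640 of all tested genes had an unadjusted p under 0.05 in edgeR and 0 passed the adjustment. These counts are background, and the members, which were chosen on this contrast, are not tested against them. The median log2 fold change of all tested genes was near 0 (-0.0020).

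Within breeds, the fertility difference of CPT2 was 0.06 on the log2 scale in Angus heifers alone and 0.15 in Holstein heifers alone, and that of HADH was 0.07 and 0.08. HADHA differed by -0.05 in Angus and by 0.37 in Holstein heifers. With 1 heifer of each close pair the pooled log2 differences were 0.11 for CPT2, 0.09 for HADHA and 0.04 for HADH, and with the pairs as blocks they were 0.07, 0.06 and 0.11. The sign of each pooled difference was thus kept, but the values for HADHA and HADH moved by over 1.5 times.

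**Figure D2:**
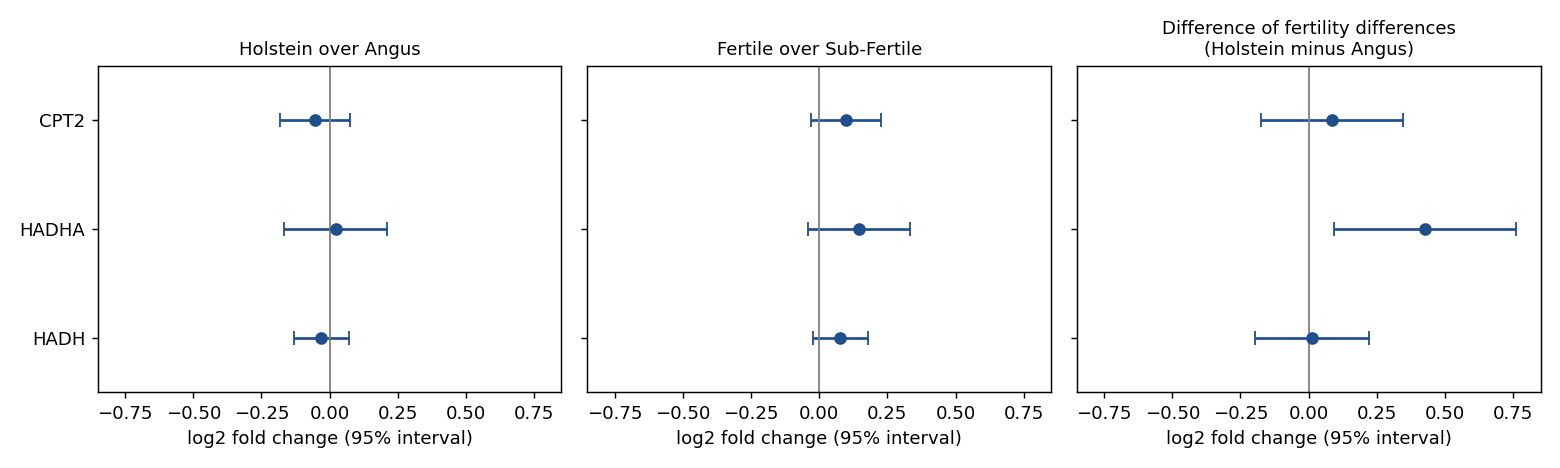
Log2 fold changes (horizontal axes) of CPT2, HADHA and HADH from the edgeR model over 22 heifers, with 95% intervals, for Holstein over Angus, Fertile over Sub-Fertile and the Holstein minus Angus difference in the fertility log2 fold change. The fertility panel shows the contrast that chose the genes, so its intervals are no test. Among the breed and interaction intervals, only that of the HADHA interaction, 0.43, does not reach 0 before any adjustment.

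The 6 close pairs that join a Sub-Fertile with a Fertile heifer allow the same contrast within heifers of similar transcriptomes, again as a description. These heifers also entered the contrast that chose the members, so a shared sign is no separate evidence. The share of all tested genes that rose in every pair is not given here. HADH was higher in the Fertile heifer of 6 of 6 pairs, by 0.0207 to 0.203 on the log2 scale of CPM + 1 (median 0.0845). The smallest step was from 37.4 CPM in heifer 5 to 38.0 CPM in heifer 6, and the largest from 35.2 CPM in heifer 15 to 40.6 CPM in heifer 19. CPT2 was higher in the Fertile heifer of 4 of 6 pairs (differences from -0.0373 to 0.243), and HADHA likewise in 4 of 6 (from -0.255 to 0.286). For HADHA the pair of heifers 12 and 8 fell from 146 to 122 CPM while the pair of heifers 16 and 7 rose from 139 to 170 CPM, and both of these pairs also crossed breeds.

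**Figure D3:**
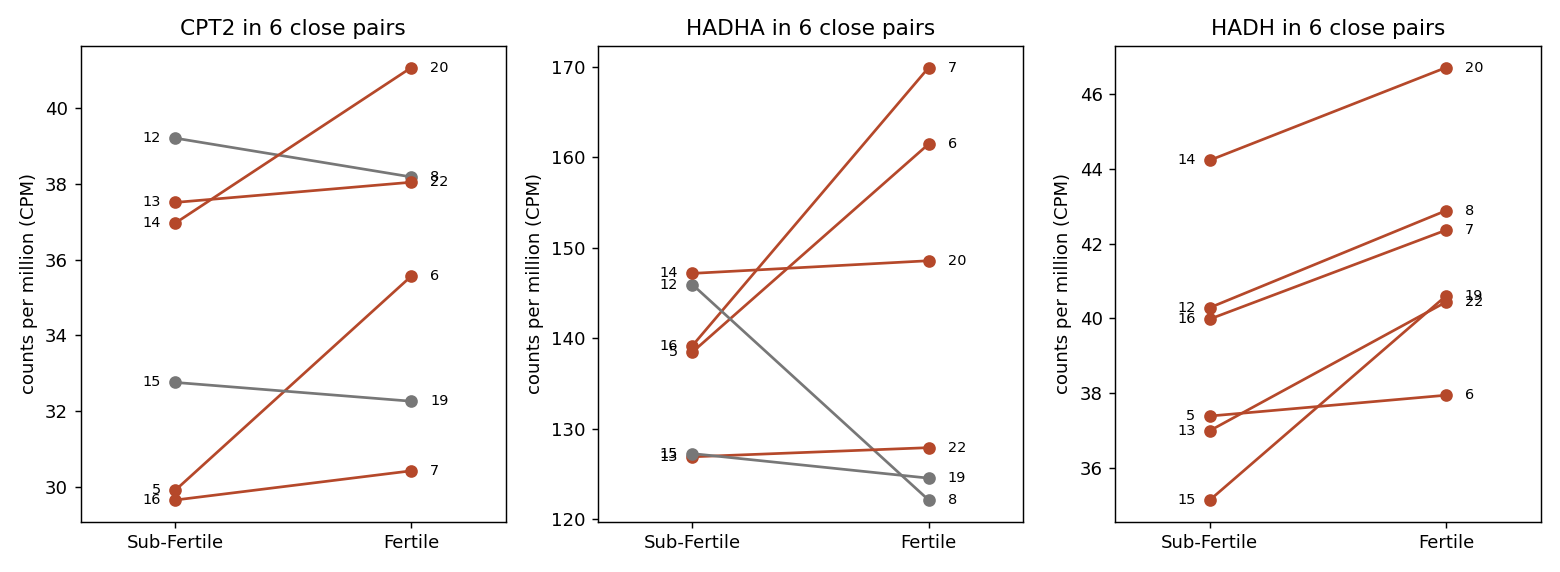
Transcript abundance in CPM (vertical axes, not starting at 0) of CPT2, HADHA and HADH in the 6 close pairs of heifers that differ in fertility group. Lines join the heifers of a pair, numbered, in red where the Fertile heifer is higher and in grey where it is lower. HADH rises in 6 of 6 pairs, CPT2 and HADHA in 4 of 6 each. These heifers were also part of the contrast that chose the genes.

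The differences of the members within close pairs were also set beside those between other heifers, as a description. The median absolute log2 difference of CPT2 was 0.0449 in the 8 close pairs and 0.155 in the 223 other pairings, and that of HADHA was 0.125 and 0.218. For HADH the values were 0.0872 and 0.103. By these medians CPT2 differed less within close pairs than between other heifers, whereas HADH differed by similar amounts in both. The close pairs were chosen for a small spread over genes with a mean CPM above 20, and the members are among those genes. A smaller difference within close pairs was therefore built in for such genes. The same medians for all tested genes are not given here, so neither pattern can be read as a trait of CPT2 or HADH. Pairings share heifers, so these values carry no test.

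Breed was not used to choose the genes, and none of the 3 differed between Holstein and Angus heifers beyond the spread among heifers. CPT2 had a mean of 35.1 ± 3.59 CPM (SD, n = 12) in Angus and 34.0 ± 3.35 CPM (n = 10) in Holstein heifers, a log2 fold change of -0.06 with a 95% interval from -0.18 to 0.07. HADHA had 139 ± 17.4 CPM in Angus and 144 ± 27.8 CPM in Holstein heifers, a log2 fold change of 0.02 (from -0.17 to 0.21). HADH had 39.6 ± 3.25 and 39.0 ± 2.67 CPM, a log2 fold change of -0.03 (from -0.13 to 0.07). In the edgeR quasi-likelihood test the Benjamini-Hochberg adjusted p over all genes was 0.758 for CPT2, 0.940 for HADHA and 0.839 for HADH. Exact permutation of breed within fertility groups, two-sided over 199584 regroupings, gave unadjusted p = 0.385 for CPT2, p = 0.832 for HADHA and p = 0.531 for HADH. As ratios of Holstein to Angus, the 95% intervals ran from 0.881 to 1.05 for CPT2, from 0.891 to 1.16 for HADHA and from 0.912 to 1.05 for HADH.

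For comparison, the breed test called 0 of 13526 genes (0.0%) at an adjusted p under 0.05 with edgeR and 1439 (10.6%) at an unadjusted p under 0.05, and DESeq2 called 10 and 1751. The members were in none of the edgeR sets. For HADHA the breed difference pointed in opposite directions in the fertility groups, at a log2 fold change of 0.25 in Fertile heifers alone and -0.18 in Sub-Fertile heifers alone. CPT2 had -0.01 and -0.09 and HADH -0.02 and -0.04 in the same subsets. With 1 heifer of each close pair the breed differences were 0.02, 0.10 and -0.04 (CPT2, HADHA, HADH), with adjusted p between 0.926 and 0.984 in the edgeR test.

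Whether the fertility difference of a member depended on breed was asked with the interaction of both terms. For HADHA the fertility log2 fold change was larger in Holstein than in Angus heifers by 0.43 (SE 0.161, 95% interval from 0.09 to 0.76). The unadjusted p was 0.0146 and the Benjamini-Hochberg adjusted p over all genes 0.463 in the edgeR quasi-likelihood test, so HADHA did not pass. For CPT2 the interaction was 0.09 (from -0.17 to 0.35, adjusted p = 0.810) and for HADH 0.01 (from -0.20 to 0.22, adjusted p = 0.973). Unadjusted p-values under 0.05 were common for the interaction, with 1408 genes (10.4%) in edgeR and 1659 in DESeq2. The share of genes with a p as small as that of HADHA is not given here. The smallest adjusted p of any gene in that edgeR test was also 0.463, and 0 genes (0.0%) passed the adjustment in edgeR or in DESeq2.

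The HADHA interaction stayed above 0 when any 1 heifer was left out, between 0.36 (without heifer 9) and 0.51 (without heifer 8), with unadjusted p between 0.00229 and 0.0365. It was 0.65 with 1 heifer of each close pair (adjusted p = 0.151) and 0.50 without heifers 10 and 18 (adjusted p = 0.199). Blocking on the close pairs gave 0.23 (adjusted p = 0.778), and the unadjusted p rose to 0.0751. How the close pairs were handled thus moved the value of HADHA by over 1.5 times in both directions.

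**Figure D4:**
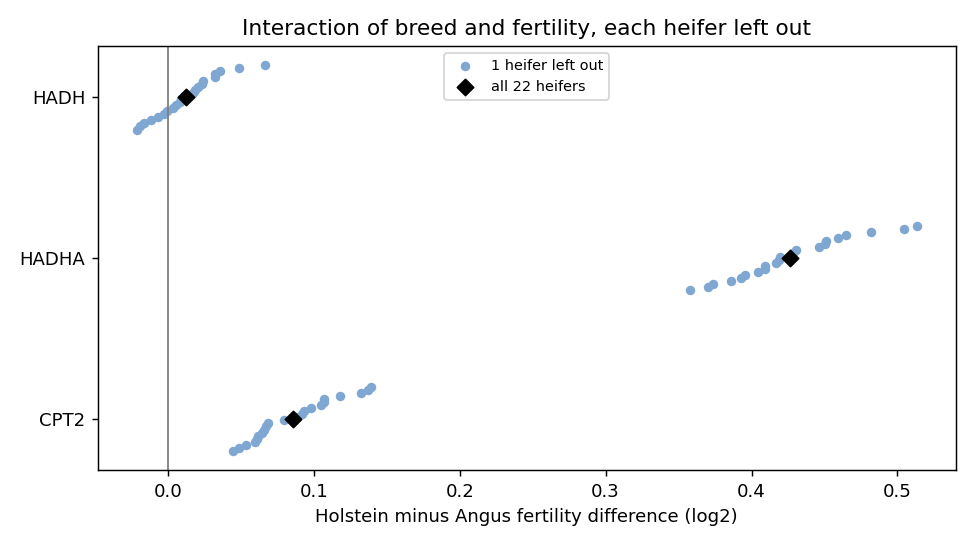
Holstein minus Angus difference in the fertility log2 fold change (horizontal axis) of CPT2, HADHA and HADH from edgeR, with all 22 heifers (diamonds) and with each heifer left out in turn (22 points per gene, sorted by value and offset vertically for display). HADHA stays between 0.36 and 0.51, CPT2 between 0.04 and 0.14, and HADH lies on both sides of 0.

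The members did not rise and fall together in a detectable way among heifers. With the 4 group means taken out, CPT2 and HADH had r = 0.361 over 22 heifers (permutation p = 0.141, adjusted over 3 pairs p = 0.423; Spearman rho = 0.330, permutation p = 0.167). CPT2 and HADHA had r = 0.145 (permutation p = 0.552, adjusted p = 0.755; rho = 0.146, p = 0.548), and HADHA and HADH had r = 0.079 (permutation p = 0.755, adjusted p = 0.755; rho = 0.153, p = 0.531). Without the 2 heifers farthest from the median of the first-named gene the values were 0.299, 0.0827 and 0.182. Single heifers moved r: for CPT2 and HADH it ran from 0.219 without heifer 20 to 0.501 without heifer 7 (permutation p = 0.0355, unadjusted), for CPT2 and HADHA from 0.0480 without heifer 21 to 0.295 without heifer 8, and for HADHA and HADH from -0.027 without heifer 21 to 0.255 without heifer 8. With no group means taken out, CPT2 and HADH had r = 0.453 (permutation p = 0.0342, adjusted p = 0.103), CPT2 and HADHA 0.280 and HADHA and HADH 0.185. With group means taken out and 1 heifer of each close pair, r was 0.530, 0.473 and 0.246 over 14 heifers, and none passed the permutation test (adjusted p from 0.224 to 0.431). HADHA and CPT2 ordered the heifers differently: heifer 9 was 1st for HADHA, 9th for CPT2 and 20th for HADH, and heifer 8 was 18th for HADHA but 3rd for both others.

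**Figure D5:**
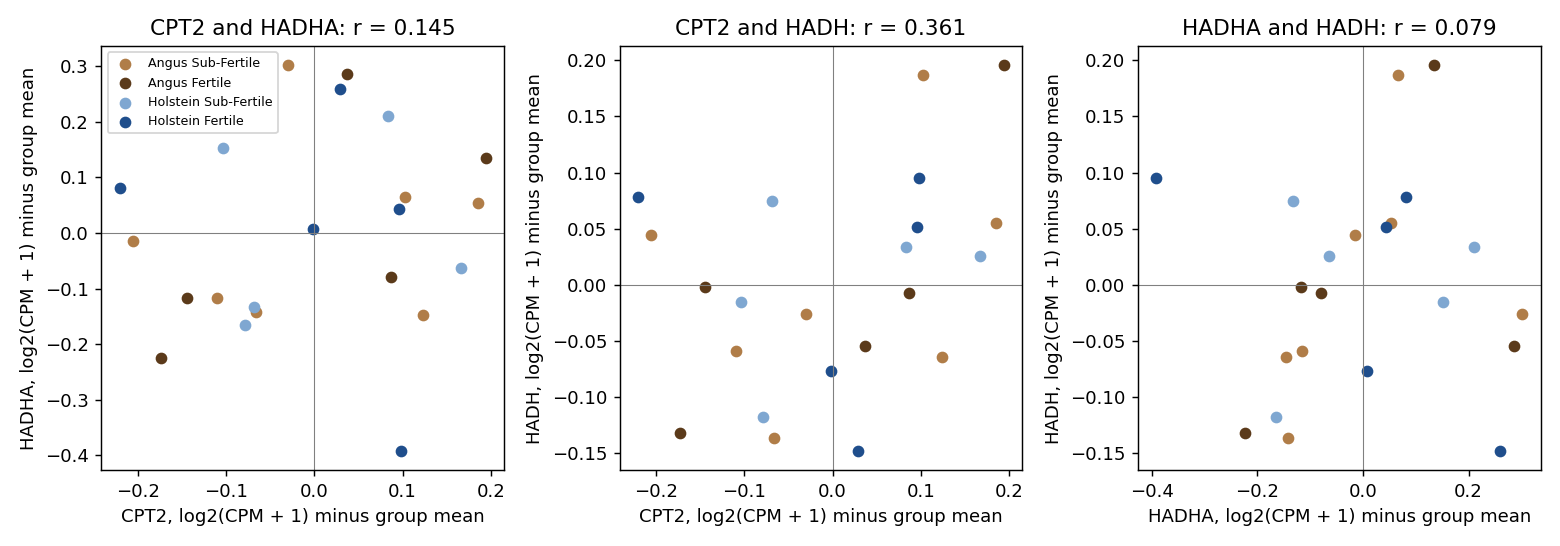
Pairs of members over 22 heifers, each axis showing log2(CPM + 1) minus the mean of the heifer's group, with points coloured by group. Pearson r is 0.145 for CPT2 and HADHA, 0.361 for CPT2 and HADH, and 0.079 for HADHA and HADH, and no panel shows a line along which the heifers fall.

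Leukocyte composition could be set beside the members only for neutrophils, since 4 of 18 neutrophil markers (CSF3R, MMP9, TGM3 and QSOX1) carried a symbol and fewer than 3 did for every other cell type, so the other leukocytes of the labelled mixture could not be checked by their markers. Those 4 were named because of their fertility p-values as well. In Angus heifers their mean log2(CPM + 1) ranged from 5.14 to 6.15 (Sub-Fertile) and from 4.63 to 5.51 (Fertile), and in Holstein heifers from 5.12 to 6.35 and from 4.19 to 5.78. The group means were 5.44 ± 0.342 (SD, n = 7) and 5.19 ± 0.358 (n = 5) in Angus Sub-Fertile and Fertile heifers and 5.77 ± 0.463 and 5.12 ± 0.579 (n = 5 each) in Holstein Sub-Fertile and Fertile heifers. The marker level was lower on average in Fertile heifers of both breeds, with a wider gap in Holstein heifers. Because the markers were named by their fertility p-values, a gap between fertility groups was built in and is no finding about neutrophils. The markers were also uneven, as MMP9 had a median of only 1.90 CPM and TGM3 ran from 4.33 to 136 CPM. With group means taken out, HADHA had r = 0.406 with this level (permutation p = 0.104, adjusted over 3 genes p = 0.313; rho = 0.346, p = 0.143), and r = 0.214 without heifers 3 and 8. Without heifer 8 alone it was 0.149, and with no group means taken out it was 0.037. For CPT2 r was 0.016 (permutation p = 0.947; rho = 0.054, p = 0.822) and for HADH 0.050 (permutation p = 0.835; rho = 0.0085, p = 0.974), and without the same heifers these were 0.014 and 0.227. The part of cell composition in the member levels was not tested further.

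Depth was also set beside the members, a relation added after the data had been seen. CPT2 had r = 0.464 with log2 total counts (permutation p = 0.0495, adjusted over 6 relations p = 0.297; rho = 0.474, p = 0.0404). This fell to 0.330 without heifers 20 and 21, which had the most and the fewest counts, and to 0.240 with CPM scaled by TMM, a correction for the composition of each library. HADH had r = 0.290 (permutation p = 0.237; rho = 0.230) and HADHA 0.0036 (permutation p = 0.989; rho = -0.0062), with 0.0773 and -0.207 without those heifers. Heifer 20 was the highest heifer for CPT2 and HADH, and the part of depth in these levels was not tested.

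Seen from each member, the most similar genes among 13525 others were not the other members. By Pearson r of log2(CPM + 1) with the 4 group means taken out, over 22 heifers and given as a description, HADH ranked 2566 and HADHA 6156 for CPT2, CPT2 ranked 4306 and HADH 5586 for HADHA, and CPT2 ranked 1921 and HADHA 7301 for HADH. The gene most like CPT2 was SPATA20 (r = 0.802, at only 3.83 CPM), and the fifth was POP4, a subunit of ribonuclease P (r = 0.783). Between them lay 3 genes without a symbol (r = 0.783 to 0.787). The next named genes for CPT2 were APEX2, a DNA repair endonuclease (r = 0.712), NDUFAF8, an assembly factor of respiratory complex I (r = 0.701), and MRPS18A, a mitochondrial ribosomal protein (r = 0.697).

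For HADHA a single gene stood above all others: ENSBTAG00000010083, which carries no symbol here, had r = 0.921 at a mean of 104 CPM, ahead of the next gene at 0.831. The fifth gene had 0.793, and the closest named gene was ETV2, an ETS family transcription factor, at rank 30 (r = 0.699). For HADH the closest gene, ENSBTAG00000002730, also had no symbol (r = 0.821, 28.3 CPM), the fifth had 0.740, and the closest named gene was TMEM237, a ciliary transition zone protein, at rank 10 (r = 0.721).

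Of the 88 genes placed in 9 lists around fatty acid oxidation, the members and 7 others carried a symbol, and all 10 were tested. The symbols were again those of genes with small fertility p-values, so their fertility values are a description. The carnitine shuttle and the rest of the spiral could not be followed beyond CPT2, HADHA and HADH, except for ACAD9, an acyl-CoA dehydrogenase that also assembles complex I. ACAD9 had 30.2 ± 3.51 CPM (SD, n = 12) in Angus and 27.5 ± 3.92 CPM (n = 10) in Holstein heifers, a log2 fold change of -0.15 (SE 0.072). Its unadjusted p was 0.0497 and its adjusted p 0.469 in edgeR. PRKAB1, a beta subunit of the AMP-activated kinase that relieves the block on fatty acid import, had 77.4 ± 7.06 CPM in Angus and 72.0 ± 2.57 CPM in Holstein heifers (log2 fold change -0.11, SE 0.046, unadjusted p = 0.0264, adjusted p = 0.437, edgeR).

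These 2 genes, both lower in Holstein heifers, were the 2 of 10 with an unadjusted p under 0.05 for breed, against 10.6% of all tested genes, and 0 of 10 passed the adjustment. The median breed log2 fold change of the 10 genes was -0.0037, against -0.013 over all genes. For the interaction 1 of 10, HADHA, had an unadjusted p under 0.05, and the median was 0.0012, against -0.017 over all genes. SLC27A5, which activates very long-chain and bile acids, had the interaction farthest from 0 among the list genes at -0.72 (SE 0.390, unadjusted p = 0.0770, adjusted p = 0.503, edgeR), at a mean of only 2.75 CPM.

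By fertility, 9 of the 10 named list genes were higher in Fertile heifers, against 6628 of the 13526 tested genes, with a median log2 fold change of 0.14, against -0.0020 over all tested genes. Because names went to genes with small fertility p-values, fold changes away from 0 were built in. The gap to all tested genes is therefore no result about the pathway, and neither the count nor the median describes the whole lists. With the close pairs as blocks, 8 of the 10 were higher and the median was 0.06. ACOT8, a peroxisomal thioesterase, had a log2 fold change of 0.13 (SE 0.057) and was the 1 list gene among the 2.62% with an unadjusted p under 0.05. ACAD9 had 0.15 (SE 0.072), and the fatty acid carriers FABP3 and FABP5 had 0.23 (SE 0.136) and 0.41 (SE 0.223). BDH1, which interconverts the ketone bodies, had 0.39 (SE 0.258), PRKAB1 0.07 (SE 0.046) and SLC27A5 -0.33 (SE 0.205). Heifers 10 and 18, a close pair of Fertile heifers that stood apart from the others, were the highest in their groups for FABP3, FABP5, ACAD9 and BDH1, with FABP5 at 17.1 and 18.6 CPM against 4.39 to 11.4 CPM in the other 20 heifers. For the members, heifers 10 and 18 had 38.1 and 36.7 CPM of CPT2, 165 and 165 CPM of HADHA, and 41.6 and 39.1 CPM of HADH, all within the range of the remaining heifers. Heifer 18 was nevertheless the highest Angus Fertile heifer for HADHA, the pair ranked 4th and 5th of 22 for it, and without both the fertility log2 difference of HADHA was 0.11. Among heifers, ACAD9 (r = 0.409) and FABP3 (r = 0.397) were the list genes most like HADHA, SLC27A5 had r = -0.441 with it, and ACOT8 had r = -0.573 with HADH, at rank 13505 of 13525.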

How the data were processed

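White blood cell RNA of 22 heifers was sequenced, 1 library per heifer, from a stranded mRNA kit. The authors aligned reads with HISAT2 to ARS-UCD1.2, filtered them with SAMtools, took out duplicates with biobambam2 and ran featureCounts on the Ensembl genes, and the deposited values are the resulting raw counts of fragments. For versions and strand the settings are not given in the sources used here, and overlapping genes on opposite strands are uncertain. Replicates are separate heifers, numbered as in the labels.

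A gene was kept if its CPM, scaled by TMM, exceeded 1 in 5 or more heifers (13526 genes, 99.87% or more of each heifer's counts). Counts were fitted in edgeR 4.0.16 (R 4.3.3), robust quasi-likelihood, with breed and fertility terms or with their interaction, library sizes as sums of counts, and Benjamini-Hochberg adjustment over all genes. The SE is the log2 fold change divided by the square root of F. The filter of the study on FPKM was not applied. DESeq2 1.42.0 was an alternative. Correlations used log2(CPM + 1), group means taken out, and 100000 permutations within groups (scipy 1.17.1). Scripts were tested on simulated data with planted changes, called at an adjusted p under 0.05 in edgeR. Of 1.2-fold changes, 28% were recovered for fertility, 30% for breed and 0% for the interaction. For 1.5-fold changes of the interaction the share was 22%. Small differences could thus be missed in each test. Changes of up to 4-fold were planted together and the heifers were simulated without close pairs, so these shares may be too high for the real data. False calls numbered 11 for fertility, 7 for breed and 1 for the interaction. A close pair is 2 heifers each nearest to the other, with a biological coefficient of variation under 0.5 of the median of all pairings (0.171), from genes with a mean CPM above 20.

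Symbols, gene positions and transcript lengths came from the annotation columns of a shortened supplementary table of the study (1401 genes in order of fertility p, 1229 with a symbol), and its test values were not used. The genes named are the members, every list gene with a symbol, and for each member the most similar genes. APEX2, NDUFAF8, MRPS18A, ETV2 and TMEM237 were named after their values were seen. The members and the lists were chosen with earlier results of these data known. HADHB, CPT1A, SLC25A20 and the other list genes without a symbol were not analysed here. Alternatives were TMM factors, other count filters, no robust estimation, DESeq2, each heifer left out, heifers 10 and 18 left out, the close pairs as blocks or with 1 heifer each, the first principal component in the model, subsets by breed or fertility, and, for correlations, a pseudocount of 0.1 or no group means taken out.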

Additional observations from a re-analysis of the deposited data

Results flagged for a closer look

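Among 40 combinations of a list gene and a heifer group checked for a single distant heifer, 1 stood out: FABP5 in Angus Sub-Fertile heifer 12, at 11.3 CPM, with a gap to its nearest neighbour that took 0.714 of the range of the group, above the 95% critical value of Dixon's test for 7 heifers. The other 6 heifers of that group had 5.36 to 7.07 CPM. Chance alone flags about 1 in 20 groups. No group of CPT2, HADHA or HADH held such a heifer. Heifer 12 belongs to the close pair with Holstein Fertile heifer 8, which had 11.4 CPM of FABP5.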

How the results depend on the processing

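With 13095 to 19236 genes tested under the alternatives, the fertility differences of CPT2 and HADH kept their sign in all 33 alternatives each, and that of HADHA in all but Angus heifers alone (-0.0520, against 0.375 in Holstein alone). Values that crossed 0 were small or rested on subsets: the breed difference of CPT2 was 0.0206 with 1 heifer of each close pair, and that of HADHA was -0.0425 once the first principal component was a covariate, -0.0800 with close pairs as blocks and -0.176 in Sub-Fertile heifers alone. The interaction of HADH was -0.0159 without heifers 10 and 18 and -0.104 with 1 heifer of each close pair. The causes were not tested. No call at an adjusted p changed for a member. Over all genes, DESeq2 called 10 genes for breed and the blocks 1 gene for the interaction at an adjusted p under 0.05, against 0. List genes at an unadjusted p under 0.05 for breed were 1 with DESeq2 and 1 with blocks, against 2. For fertility they were 2 with TMM factors, 2 with DESeq2 and 2 with blocks, against 1 (ACOT8). The list genes were named by their fertility p, so the fertility counts are a description and no test.

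With each heifer left out in turn, the log2 differences ranged from -0.0193 to 0.0584 for HADHA by breed and from -0.0213 to 0.0666 for the interaction of HADH, and r ranged from -0.027 to 0.255 for HADHA with HADH, from -0.109 to 0.204 for CPT2 and from -0.078 to 0.234 for HADH with neutrophil markers, from -0.193 to 0.0865 for HADH with the first principal component and from -0.181 to 0.0889 for HADHA with log2 total counts. Correlations near 0 also crossed it under other settings. With neutrophil markers these were CPT2 (-0.058 with TMM-scaled CPM, -0.201 with no group means taken out) and HADH (-0.041 and -0.151). With log2 total counts they were HADHA (-0.170 with TMM, -0.106 with no group means taken out, -0.207 without the 2 farthest heifers) and HADH (-0.032 with TMM). With the first principal component HADH had -0.040, and 0.039 without the 2 farthest heifers and 0.312 with 1 heifer of each close pair. The replicate numbers only name heifers within a group and gave no pairing. The correlation of HADHA with HADHB was not run, since HADHB carries no symbol here.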
